A study of Mus musculus with 30 samples.

Results

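RNA levels in the G2/M fraction of growing C2C12 cells were compared with those in the S fraction. C2C12, an established mouse cell line, consists of myoblasts, the precursors of muscle fibres, which multiply in serum and can fuse into myotubes. All fractions came from cells in the growing state in 20% serum, with no genetic change or drug named in the labels, stained with the Hoechst DNA dye for 15 minutes and sorted into G1, S and G2/M, per the labels' protocols. The members were all genes with at least 10 CPM (fragments of a gene scaled to a fixed library total) in the S or the G2/M library, which held for 8752 of 46078 genes in the deposited table. The series has 30 samples, of which 6 are RNA samples, with 2 count columns per phase, and 4 entered this comparison. Only the S titles bear a mark for a lot, and this lot cannot be told apart from the phase. G1 levels are given beside the compared phases as levels only.

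A cell that has copied its DNA in S phase passes through G2 and enters mitosis when cyclin B bound to Cdk1 is switched on by the phosphatase Cdc25 and by the kinases Plk1 and Aurora A. Mitotic kinesins, spindle pole proteins and kinetochores then build and hold the spindle, and the anaphase-promoting complex, with its activator Cdc20 and the ubiquitin-conjugating enzymes Ube2c and Ube2s, degrades cyclin B and securin to start anaphase. Many of these genes are transcribed late in the cycle through promoter elements named CHR and CCAAT, while origin licensing and DNA synthesis genes are transcribed earlier, around the G1/S boundary. The comparison asks how the RNA of such gene groups, and of all other genes, differed between the sorted fractions.

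The S library held 35822319 fragments assigned to genes and the G2/M library 35907974. The 2 columns of a phase are numbered as replicates in the titles, but nothing says that they came from separate cultures. Chi-square over its degrees of freedom between the 2 columns was 1.03 in S and 1.15 in G2/M. Without the gene model Gm17082, whose level was 107 CPM in one G2/M column and 14.1 CPM in the other, it was 1.04 in G2/M. For this reason each phase was taken as 1 library, the sum of its columns. Over the 4212 members that averaged 50 CPM or more across S and G2/M, 0 genes were 2-fold apart between the 2 S columns and 0 between the 2 G2/M columns, against 98 between G2/M and S. With 1 library per phase no difference has a replicate check, and no test across genes was made. Each log2 ratio below is G2/M over S and has an exact binomial interval at 95% that covers counting error only, since PCR copies are not independent molecules. In sorted bulk cells, fewer cells of a kind and less RNA per cell cannot be told apart.

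Most genes differed little between the fractions, and the large ratios sat among genes of low level. Of the 8752 members, 4416 (50.5%) stood higher in G2/M and 4336 (49.5%) lower, with a median log2 ratio of 0.01 and a median absolute log2 ratio of 0.37. At least 2-fold higher were 623 genes (7.12%), and at least 2-fold lower were 578 (6.6%). At 1.5-fold these numbers were 1408 (16.1%) and 1349 (15.4%). Of the 4212 genes averaging 50 CPM or more, 2063 (49.0%) stood higher and 2149 (51.0%) lower, 40 (0.95%) were 2-fold higher and 58 (1.38%) 2-fold lower, and the median was -0.01. At 1.5-fold, 300 of these genes (7.12%) stood higher and 314 (7.45%) lower. The shares over all members, 50.5% higher and 49.5% lower, apply beside the counts of every gene list below. Several lists share genes, above all the mitotic ones, so their counts are not separate results.

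The spread of ratios depended on level. Below a mean of 20 CPM the log2 ratio had a robust SD of 1.16 over 1998 genes, and 38.2% of them were 2-fold apart. Between 100 and 200 CPM it was 0.36 over 1224 genes, with 1.23% 2-fold apart, and above 500 CPM it was 0.29 over 301 genes. In every class the robust SD was several times the median counting half-interval, which ran from 0.20 below 20 CPM to 0.02 above 500 CPM. A ratio of 1 on the log2 scale was thus common among genes of low level and rare among genes above 100 CPM.

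**Figure D1:**
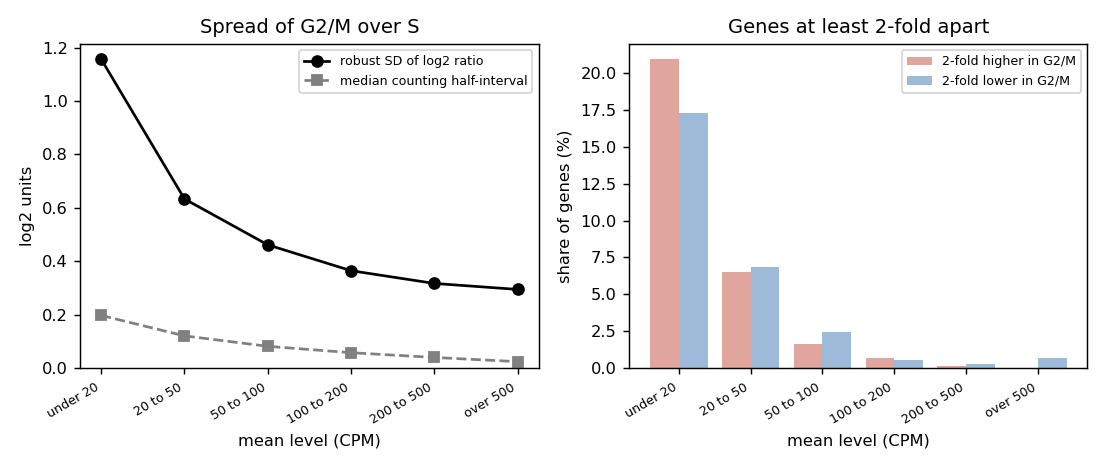
Spread of the log2 ratio of G2/M over S (left, robust SD in log2 units, with the median counting half-interval as squares) and share of genes at least 2-fold higher or lower in percent (right), by mean level in CPM. The robust SD runs from 1.16 in the lowest class to 0.29 in the highest, and the share of 2-fold genes is largest below 20 CPM.

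The summed level of the G2/M score genes followed the sort labels, while that of the S score genes was highest in the fraction labelled G1. Of the 54 genes of the G2/M list commonly used to score cell-cycle phase in single cells, 49 stood higher in G2/M (50.5% of all members did), with a median of 0.46, and 8 were 2-fold higher (7.12% of members) against 0 lower (6.6%). Their summed level was 12721 CPM in S and 16050 in G2/M, against 7801 in G1. The matching S list had 41 measured genes, of which 26 stood lower in G2/M and 15 higher, with a median of -0.11. Its summed level was 4846 CPM in S and 4502 in G2/M, against 7177 in G1, so the S fraction lay between the other fractions and close to G2/M. Pcna, the sliding clamp of DNA polymerases, stood at 183 CPM in S and 170.0 in G2/M, against 408 in G1. DNA content of the sorted cells was not analysed here.

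Of the myoblast markers considered, Myf5, Cdh15 and Itga7 were present in both fractions, Des is given further below, and values of Msc and Vcam1 are not given here. Myf5, a myogenic determination factor, stood at 123 and 129 CPM in the S columns and 125 and 130.4 CPM in the G2/M columns, with a log2 ratio of 0.02 (interval -0.04 to 0.08). M-cadherin, encoded by Cdh15, stood at 92.1 CPM in S against 85.5 in G2/M, and the laminin receptor subunit Itga7 at 273 and 244 CPM. Myod1, the myogenic factor that the line is known for, was low at 6.08 CPM in S against 5.73 in G2/M, with an interval of its ratio from -0.37 to 0.20 that includes 0. Of 32 markers of other cell types, 20 had 0 fragments in both fractions and 7 were measured, with a summed level of 3939 CPM in S against 3499 in G2/M. Most of that sum was Nes, which myoblasts express too, at 3170.0 and 2656 CPM. The neuronal tubulin gene Tubb3 stood 1.93-fold higher in G2/M and the fat cell regulator Pparg 1.81-fold, and whether they have a part in other differences was not tested.

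**Figure D2:**
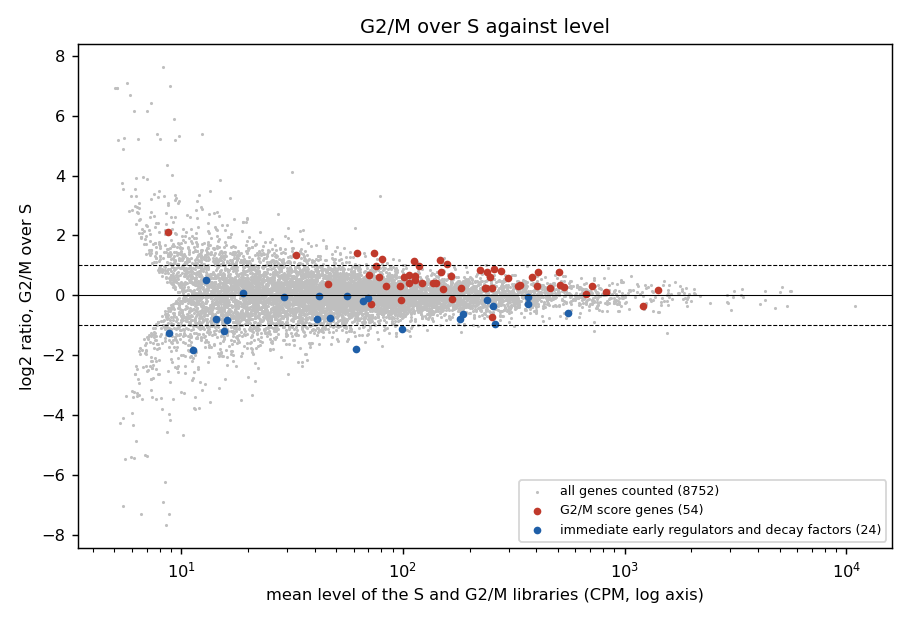
Log2 ratio of G2/M over S for the 8752 members against their mean level in CPM on a log axis, with the 54 G2/M score genes in red, the 24 measured immediate early regulators and decay factors in blue and dashed lines at 2-fold. Most red points lie above 0 (49 of 54) and most blue points below it (22 of 24), and the grey cloud widens toward low levels.

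The switch into mitosis was higher in the G2/M library at most of its genes. Of 22 measured members, 17 stood higher and 5 lower, with a median of 0.37, and among the 15 averaging 50 CPM or more 13 stood higher, 7 of them 1.5-fold (7.12% of genes at this level). Ccnb1, the main mitotic cyclin, stood at 242 and 243 CPM in the S columns and 398 and 383 CPM in the G2/M columns, 1.61-fold higher in G2/M, with a log2 ratio of 0.69 (interval 0.65 to 0.73). Ccnb2, a second B-type cyclin, stood at 18.7 and 18.5 CPM in the S columns and 47.4 and 47.7 CPM in the G2/M columns, a log2 ratio of 1.35 (interval 1.22 to 1.48). For both cyclins the S library lay between G2/M and G1, which stood at 74.3 CPM for Ccnb1 and 10.5 CPM for Ccnb2.

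Cdk1, the kinase that both cyclins switch on, stood at 242 and 234 CPM in the S columns and 354 and 360.3 CPM in the G2/M columns, 1.5-fold higher. Cks2, a small subunit that docks Cdk1 on its substrates, stood at 34.8 and 33.4 CPM in the S columns and 90.0 and 90.9 CPM in the G2/M columns, with a log2 ratio of 1.41 (interval 1.31 to 1.51). Plk1, the polo-like kinase of mitotic entry, stood at 99.3 and 94.1 CPM in the S columns and 202 and 208 CPM in the G2/M columns, with a log2 ratio of 1.08 (interval 1.02 to 1.14). Ccna2, a cyclin active from S phase into mitosis, differed least of these genes, at 365 CPM in S against 445 in G2/M, 1.22-fold higher. Per kilobase of exon, the G2/M levels were 131 CPM for Cks2, 109 for Ccna2, 104 for Cdk1, 92.5 for Ccnb1 and 30.8 for Ccnb2.

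Mastl, the Greatwall kinase that holds back the phosphatase PP2A during mitosis, went the other way. It stood at 90.2 and 88.9 CPM in the S columns and 43.5 and 45.3 CPM in the G2/M columns, 2.01-fold lower in G2/M, with a log2 ratio of -1.01 (interval -1.1 to -0.92), and 26.4 CPM in G1. Its substrate Arpp19 and the transcription factor gene Mybl2 were also lower, with log2 ratios of -0.13 and -0.25.

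The 2 Aurora kinase genes went in opposite directions. Aurka, the spindle pole Aurora kinase, stood at 81.0 and 79.3 CPM in the S columns and 160.1 and 152 CPM in the G2/M columns, 1.95-fold higher, with a log2 ratio of 0.96 (interval 0.90 to 1.03). Aurkb, the Aurora kinase of the chromosomal passenger complex, stood at 78.2 and 80.7 CPM in the S columns and 65.1 and 63.8 CPM in the G2/M columns, with a log2 ratio of -0.30 (interval -0.38 to -0.22). The 2 Aurora genes therefore had similar levels in the S library and differed in G2/M. Nek2, a centrosome kinase, was 1.84-fold higher, at 181 and 333 CPM, and Haspin, which marks histone H3 for the passenger complex, had a log2 ratio of -0.50. Over the 13 measured passenger, Aurora and Polo genes, 9 stood higher and 4 lower, with a median of 0.09.

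**Figure D3:**
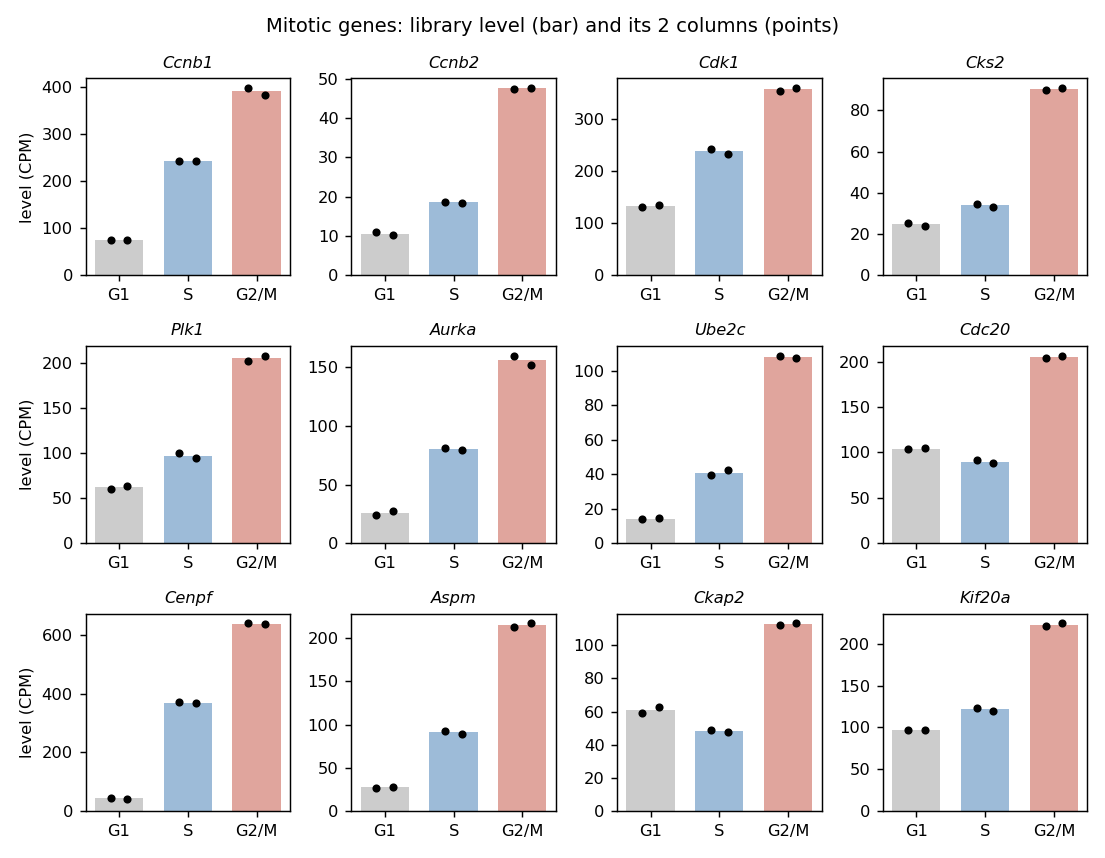
Levels in CPM of 12 mitotic genes in the G1, S and G2/M libraries, with bars for the library and points for its 2 columns. The G2/M bar is the highest for each gene, and for Cdc20 and Ckap2 the G1 bar lies above the S bar.

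Genes of the anaphase-promoting complex showed both directions. Ube2c, the ubiquitin-conjugating enzyme that starts chains on cyclin B, stood at 39.5 and 42.2 CPM in the S columns and 109 and 107 CPM in the G2/M columns, 2.65-fold higher in G2/M, with a log2 ratio of 1.40 (interval 1.32 to 1.49). Cdc20, the mitotic activator, stood at 92.0 and 87.8 CPM in the S columns and 204 and 207 CPM in the G2/M columns, 2.28-fold higher, with a log2 ratio of 1.19 (interval 1.13 to 1.25). Pttg1, which encodes the substrate securin, was 1.84-fold higher. Ube2s, the enzyme that extends the chains, stood instead at 683 and 681 CPM in the S columns and 406 and 406 CPM in the G2/M columns, with a log2 ratio of -0.75 (interval -0.78 to -0.72). The core subunits Anapc7 and Cdc16 were lower in G2/M as well, at 37.1 and 16.5 CPM for Anapc7 and 99.99 and 50.3 CPM for Cdc16, in S and G2/M. Of the 20 genes of the group, 12 stood higher and 8 lower, and the summed level was 2183 CPM in both libraries.

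The spindle checkpoint, which holds anaphase until chromosomes are attached, stood higher in G2/M for 8 of 12 genes (50.5% of all members), with a median of 0.28. Of the 12, 0 were 2-fold apart in either direction (7.12% of members were 2-fold higher and 6.6% lower). The highest ratios above a mean of 20 CPM were those of Bub3 (1.66-fold higher) and Bub1b (1.62-fold higher), subunits of the complex that inhibits Cdc20. Trip13, the ATPase that takes the checkpoint complex apart, was 1.81-fold lower, at 143 and 136 CPM in the S columns and 75.9 and 77.9 CPM in the G2/M columns. Zw10, which brings dynein to kinetochores, was 1.70-fold lower.

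At kinetochores and centromeres, 21 of 34 measured genes stood higher (50.5% of all members) and 13 lower, with a median of 0.19. Cenpf, a large kinetochore protein that accumulates through G2, stood at 371 and 367 CPM in the S columns and 639 and 638 CPM in the G2/M columns, 1.73-fold higher, with a log2 ratio of 0.79 (interval 0.76 to 0.82). It also stood far apart in G1, at 42.4 CPM. Cenpa, the centromeric histone gene, was 1.42-fold higher. The inner kinetochore genes Cenpn and Cenpt were 2.36-fold and 2.35-fold higher, both at means below 50 CPM, where ratios spread more widely. The outer kinetochore genes Dsn1 and Ndc80 had log2 ratios of -0.50 and -0.17.

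Mitotic kinesins had the highest median of the lists with at least 7 measured genes, at 0.56, with 12 of 15 higher. Kif22, a chromosome arm motor, stood at 36.8 and 36.1 CPM in the S columns and 78.2 and 78.3 CPM in the G2/M columns, with a log2 ratio of 1.1 (interval 1.01 to 1.20). Kif14 and Kif20a, motors of cytokinesis, were 1.87-fold and 1.83-fold higher, and Kif23, the motor of the central spindle, 1.70-fold. Lower in G2/M were Kif15, a spindle motor that works beside Eg5, at 119 CPM in S against 69.3 in G2/M, and Kif2a, a microtubule depolymerase, with a log2 ratio of -0.42.

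Genes of spindle poles and assembly were higher for 24 of 34 members, with a median of 0.24. Aspm, which focuses microtubules at spindle poles, stood at 92.2 and 89.6 CPM in the S columns and 213 and 217 CPM in the G2/M columns, 2.36-fold higher, with a log2 ratio of 1.24 (interval 1.18 to 1.30). Ckap2, a spindle microtubule protein, stood at 48.7 and 47.7 CPM in the S columns and 112 and 113 CPM in the G2/M columns, 2.34-fold higher, and Troap was 2.08-fold higher. The augmin subunit genes Haus8 and Haus2, whose complex branches microtubules, were 2.41-fold and 2.15-fold lower, and Clasp2, a microtubule plus-end protein, 1.77-fold. All of these lower genes had means below 50 CPM. Tubulin genes stood higher for 9 of 12, led by Tubb3 and Tubb4b, yet their summed level was 8322 CPM in S against 8010 in G2/M. Tuba1a, the alpha tubulin gene with the most fragments, stood at 3536 and 2489.9 CPM.

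Cytokinesis genes stood higher for 13 of 19 (50.5% of all members), with a median of 0.29, and condensin and cohesin genes for 18 of 23, with a median of 0.21. No gene of either group was 2-fold apart (7.12% of members were 2-fold higher and 6.6% lower). Esco2, which acetylates cohesin during S phase, was 1.71-fold lower in G2/M, at 57.9 and 33.9 CPM, and the cohesin loader gene Nipbl had a log2 ratio of -0.42. Genes of the nuclear envelope showed no common direction, with 10 of 17 higher and a median of 0.04. Lbr, the lamin B receptor, stood at 317 and 315 CPM in the S columns and 189 and 189.5 CPM in the G2/M columns, 1.67-fold lower, and Sun1 was 1.64-fold lower, while Syne2, which links the nucleus to the cytoskeleton, was 1.54-fold higher. Top2a and Mki67, widely used markers of dividing cells, differed little, 1.14-fold and 1.20-fold higher.

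Promoter windows were searched for the CHR and CCAAT elements. Of the 54 G2/M score genes, 49 stood higher in G2/M and 5 lower, and other mitotic groups above held genes of both directions. Windows of 300 bases around RefSeq starts (GRCm38.p6, 250 bases before to 50 after) were available for 47 of the 54 G2/M score genes. CHR was searched as TTTGAA or TTCGAA and CCAAT as CCAAT, on both strands, with overlapping matches allowed. Capitals below mark the matches, and in the runs of 30 bases the CHR match nearest to the end of the window. The first 2 stretches lie before the starts of the genes with the highest and next-highest ratios of the anaphase-promoting group, Ube2c (chr2:164769779-164769917, plus strand) and Cdc20 (chr4:118437344-118437493, minus strand). The runs of 30 bases are from Ccnb2 (chr9:70421533-70421562, minus strand), Aurka (chr2:172370521-172370550, minus strand), Plk1 (chr7:122159453-122159482, plus strand) and Aspm (chr1:139454767-139454796, plus strand).
Ube2c: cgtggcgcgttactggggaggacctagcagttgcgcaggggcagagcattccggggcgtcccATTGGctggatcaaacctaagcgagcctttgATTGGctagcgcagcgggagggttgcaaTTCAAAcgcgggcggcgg
Cdc20: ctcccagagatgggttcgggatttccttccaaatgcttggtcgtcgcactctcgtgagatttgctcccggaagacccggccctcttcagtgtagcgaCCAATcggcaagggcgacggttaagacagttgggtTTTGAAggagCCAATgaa
Ccnb2: agcggcgcggtaTTTGAAtcgcggaccggg
Aurka: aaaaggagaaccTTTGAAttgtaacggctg
Plk1: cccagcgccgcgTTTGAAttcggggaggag
Aspm: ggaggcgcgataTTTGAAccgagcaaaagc

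In these sequences CHR read TTTGAA on the gene's strand in 5 genes and TTCAAA, its reverse complement, in Ube2c. The match began at position -29 for Ube2c and -18 for Cdc20, counted back from the start, and at 5 for Ccnb2, 7 for Aspm, 31 for Plk1 and 33 for Aurka, counted from 1 at the start. Each of the 6 windows also held CCAAT, while the windows of Cks2 and Ccnb1 held CCAAT but not these CHR letters. Both elements were in 29 of the 47 windows of G2/M score genes (61.7%) and in 8.61% of 27025 genes with a window. Of the 29 S score genes with a window, 4 held both (13.8%).

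Across all genes averaging 50 CPM or more and a window, those with both elements were only slightly higher in G2/M. Their median was 0.12 over 249 genes, of which 143 stood higher (57.4%), against -0.01 over 3109 genes without both, of which 49.1% stood higher. Without the G2/M score genes, the median was 0.02 over 222 genes with both elements and -0.01 over 3091 without. Within the score list, genes with both had a median of 0.58 (27 genes) and the others 0.40 (18 genes). Of the genes 1.5-fold higher at this level, 41 of 243 with a window held both elements (16.9%), against 18 of 240 of those 1.5-fold lower (7.5%). Over all genes at this level the share was 249 of 3358 (7.42%). The genes 1.5-fold higher include 23 G2/M score genes, and the share without them was not computed. A match describes letters in a window and does not show binding.

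DNA replication genes were found in both directions. Of 17 licensing genes 10 stood lower (49.5% of all members did) and 7 higher, with a median of -0.19. Mcm2, a subunit of the replicative helicase, stood at 169 and 173 CPM in the S columns and 103 and 97.1 CPM in the G2/M columns, 1.71-fold lower, with a log2 ratio of -0.78 (interval -0.84 to -0.72), and Mcm4 was 1.40-fold lower. The helicase loader genes Cdt1 and Cdc6 went the other way. Cdt1 stood at 16 and 15.2 CPM in the S columns and 37.7 and 38.0 CPM in the G2/M columns, 2.42-fold higher, and at 59.8 CPM in G1. Cdc6 stood at 10.3 and 12.1 CPM in the S columns and 24.2 and 24.2 CPM in the G2/M columns, 2.16-fold higher, against 140.3 CPM in G1, so for both loaders the S fraction was the lowest of the 3.

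Origin firing showed the same split of directions. Cdc7, the kinase that activates loaded helicases, stood at 82.0 and 80.7 CPM in the S columns and 35.9 and 34.5 CPM in the G2/M columns, 2.31-fold lower, with a log2 ratio of -1.21 (interval -1.31 to -1.11). Cdc45, a helicase cofactor, stood at 17.8 and 18 CPM in the S columns and 47.5 and 44.7 CPM in the G2/M columns, 2.57-fold higher, and at 42.6 CPM in G1. Of the 13 genes of origin firing, 8 stood lower and 5 higher, with a median of -0.19. Among polymerase genes, those averaging 50 CPM or more were lower in 4 of 4, with a median of -0.56, while over all 12 the median was 0.03 with 6 in each direction. Pola1, the catalytic subunit of polymerase alpha, was 1.66-fold lower and Pole, that of polymerase epsilon, 1.70-fold. Genes of the sliding clamp, the single-strand binding protein RPA and the lagging strand stood higher for 11 of 21, near the 50.5% of all members. Their median was 0.02. Rpa2, an RPA subunit, was 1.84-fold higher, at 31.1 CPM in S against 57.1 in G2/M.

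Dck, which salvages deoxycytidine for nucleotide pools, stood at 86.7 and 79.9 CPM in the S columns and 29.8 and 30.5 CPM in the G2/M columns, 2.76-fold lower in G2/M, with a log2 ratio of -1.47 (interval -1.57 to -1.37). Gart, of purine synthesis, was 1.78-fold lower, while Rrm2, a subunit of ribonucleotide reductase, differed by 1.14-fold. Chaf1b, a subunit of the chaperone that deposits histones behind the fork, stood at 50.5 and 48.5 CPM in the S columns and 16.3 and 14.6 CPM in the G2/M columns, 3.20-fold lower. Mms22l, which acts with Tonsl at stalled forks, was 2.80-fold lower, and Tonsl 1.41-fold higher. Of the 18 nucleotide supply genes 11 stood lower (median -0.16), and of the 21 histone chaperone genes 12 (median -0.13), beside 49.5% of all members. Among those averaging 50 CPM or more, 10 of 17 nucleotide supply genes stood lower (median -0.14). At that level 8 of 15 histone chaperone genes stood higher (median 0.01), so the direction of this list depended on the level taken.

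Genes of the replication checkpoint and of repair by recombination had a median of -0.40, with 22 of 35 measured genes lower (49.5% of members) and 9 of them 2-fold lower (6.6%), against 2 that were 2-fold higher (7.12%). Brca1, which directs repair of broken DNA by recombination, stood at 71.2 and 80.1 CPM in the S columns and 26.5 and 25.5 CPM in the G2/M columns, 2.91-fold lower, with a log2 ratio of -1.54 (interval -1.65 to -1.43). Xrcc2, a gene of repair by recombination, was 2.45-fold lower and Rad54l, a motor protein of the same repair, 2.38-fold. Only 7 of the 35 genes had a mean of at least 50 CPM, and their median was -0.18, with 4 lower and 3 higher. The low levels of the others place them where ratios spread widely. Exo1, the nuclease that resects DNA ends, stood at 15.2 and 13.4 CPM in the S columns and 40.7 and 42.1 CPM in the G2/M columns, 2.90-fold higher, and at 46.8 CPM in G1. Rad17 and the checkpoint kinase gene Atr were 1.76-fold and 1.53-fold higher.

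Of 25 measured cyclins and regulators of the G1/S boundary, 18 stood higher in G2/M (50.5% of all members) and 7 lower, with a median of 0.13. E2f3 and Cdkn2d had log2 ratios of 0.70 and 0.64, while the cyclins named next differed less. Ccne1 and Ccne2, the E-type cyclins, stood at 19.4 and 16.6 CPM in S and 20.9 and 20.8 CPM in G2/M, against 59.9 and 85.6 CPM in G1. Ccnd1, the cyclin that answers to growth factors, stood at 693 and 726 CPM, and Cdkn1a, the inhibitor p21, at 20.6 and 22.6 CPM with an interval of its ratio from -0.01 to 0.28. Rbl2, the pocket protein p130, was the one member 2-fold apart, at 14 and 14 CPM in the S columns and 43.5 and 40.9 CPM in the G2/M columns, 3.02-fold higher. Of the 28 replication-dependent histone genes 2 were measured and 14 had 0 fragments in both libraries. The linker histone gene Hist1h1c stood at 71.7 and 99.5 CPM.

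**Figure D4:**
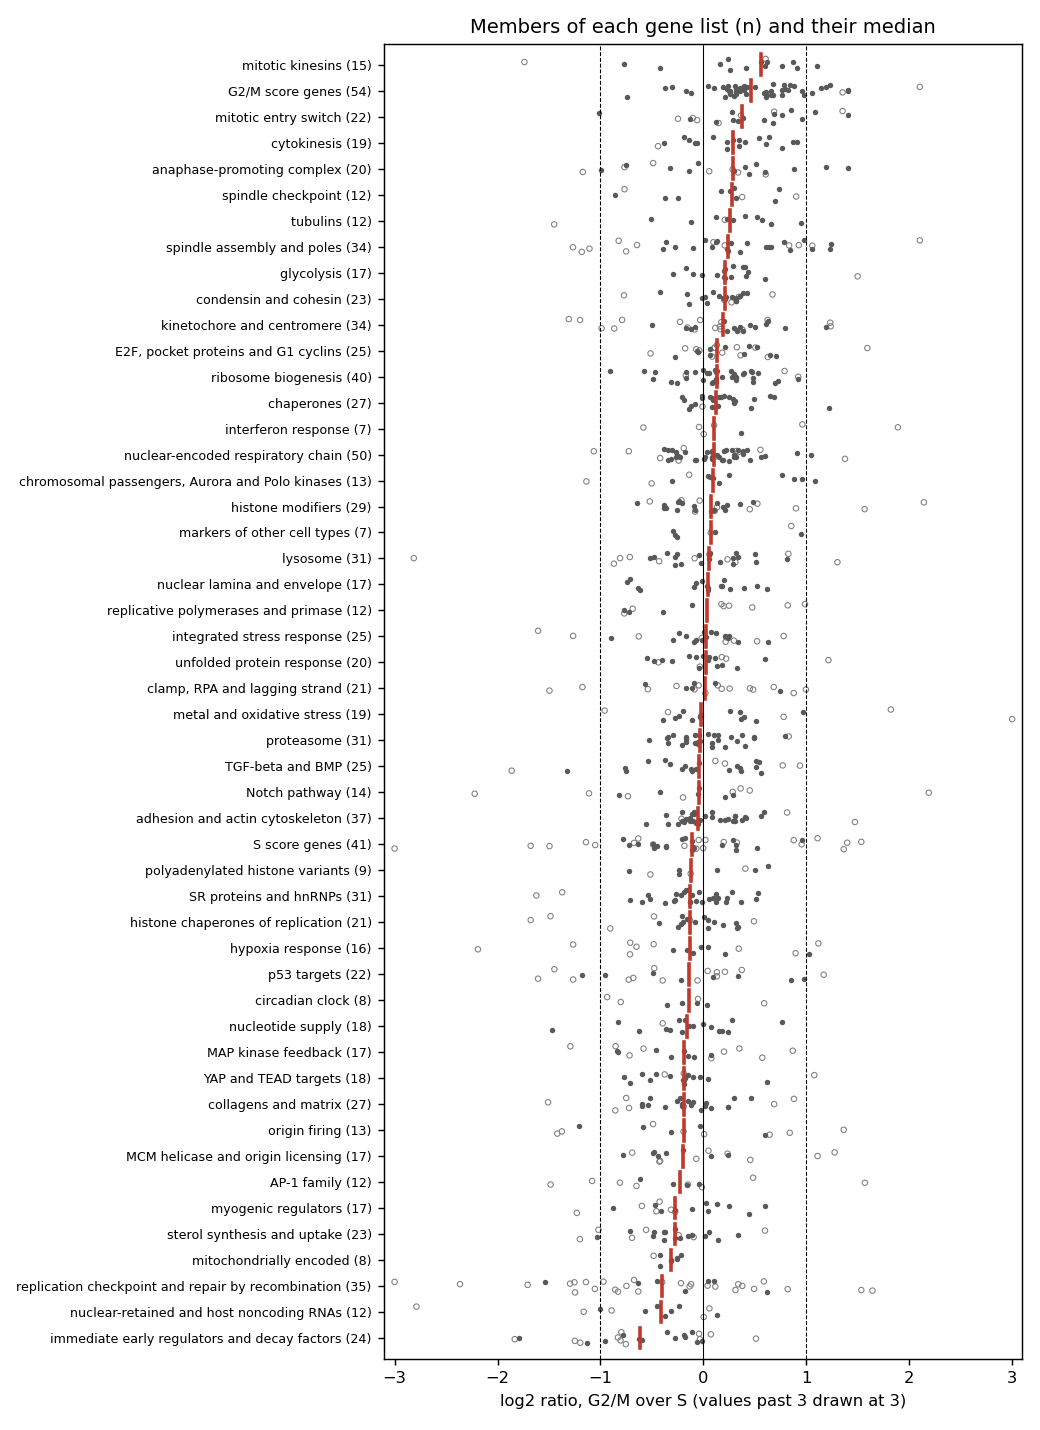
Log2 ratio of G2/M over S for the measured members of each gene list with at least 7 of them (filled points have a mean of at least 50 CPM, open points less) and the list's median as a red bar, with dashed lines at 2-fold. Medians run from 0.56 for mitotic kinesins to -0.61 for immediate early regulators and decay factors, and the widest ratios belong to open points.

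At the other end of the lists stood the immediate early genes, which growth factor signals switch on within minutes and whose short-lived RNAs need continued transcription. Of 24 measured immediate early regulators and decay factors 22 stood lower in G2/M (49.5% of members) and 2 higher, with a median of -0.61, the lowest of the lists with at least 7 measured genes. Of the 24, 5 were 2-fold lower (6.6%). Among the 13 averaging 50 CPM or more, 13 stood lower (51.0% of genes at this level), 6 of them 1.5-fold (7.45%), with a median of -0.35. Their summed level was 3546 CPM in S and 2537 in G2/M, against 3133 in G1.

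Egr1, a zinc finger factor that growth factors induce, stood at 94.3 and 95.6 CPM in the S columns and 27.9 and 27 CPM in the G2/M columns, 3.46-fold lower, with a log2 ratio of -1.79 (interval -1.89 to -1.69), the lowest of the named genes averaging 50 CPM or more. In G1 it stood at 71.9 CPM, between the other phases. Nab2, a repressor that binds Egr1 and is induced by it, stood at 136 and 136 CPM in the S columns and 62.5 and 62.0 CPM in the G2/M columns, 2.19-fold lower, and at 69.9 CPM in G1. Btg1, which speeds the removal of poly(A) tails, stood at 345 and 341 CPM in the S columns and 173 and 182 CPM in the G2/M columns, 1.93-fold lower. For all 3 genes the G2/M library was the lowest of the 3 phases. Fos was low in both libraries, at 10.7 and 6.09 CPM, with a log2 ratio of -0.81 (interval -1.06 to -0.57). Myc stood at 42.2 CPM in S against 41.3 in G2/M, and its interval, from -0.14 to 0.07, included 0. Srf, the factor that drives many of these genes, and Klf6 were chosen after their values were seen, with log2 ratios of -0.78 (interval -0.83 to -0.73) and -0.60 (interval -0.63 to -0.57).

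The AP-1 family, which pairs Fos with Jun proteins, stood lower for 10 of 12 genes, with a median of -0.23. Fosl2 stood at 127 and 122 CPM in the S columns and 81.9 and 81.2 CPM in the G2/M columns, 1.53-fold lower, and Mafk, a small Maf protein, was 2.80-fold lower. Junb and Fosl1 were the 2 higher members. Junb stood at 16 and 15.9 CPM in the S columns and 44.6 and 50.1 CPM in the G2/M columns, 2.97-fold higher, and at 47.4 CPM in G1, so its S level was the lowest of the 3. Fosl1 was 1.40-fold higher in G2/M.

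Feedback genes of the MAP kinase pathway stood lower for 11 of 17, with a median of -0.19, and for 7 of 8 averaging 50 CPM or more. Errfi1, an inhibitor of the EGF receptor, stood at 235 and 231 CPM in the S columns and 133 and 128 CPM in the G2/M columns, 1.78-fold lower. The phosphatase genes Dusp16 and Dusp6, which switch off JNK, p38 and ERK kinases, were 1.78-fold and 1.64-fold lower, while Spry2, a receptor signalling inhibitor, was 1.83-fold higher.

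Targets of YAP and TEAD, the factors that answer to cell stretch and adhesion, stood lower for 15 of 18 genes, with a median of -0.19. Ccn1, a secreted matrix protein, stood at 579.7 and 574 CPM in the S columns and 334 and 339.6 CPM in the G2/M columns, 1.71-fold lower, with a log2 ratio of -0.78 (interval -0.81 to -0.74). Ccn2, its relative, stood at 641 and 638 CPM in the S columns and 418 and 426 CPM in the G2/M columns, 1.52-fold lower, and F3, tissue factor, was 1.64-fold lower. In G1 Ccn1 stood at 343 CPM and Ccn2 at 336 CPM, so the S library held the highest level of both. Ptpn14, a phosphatase that binds YAP, was 1.54-fold higher.

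**Figure D5:**
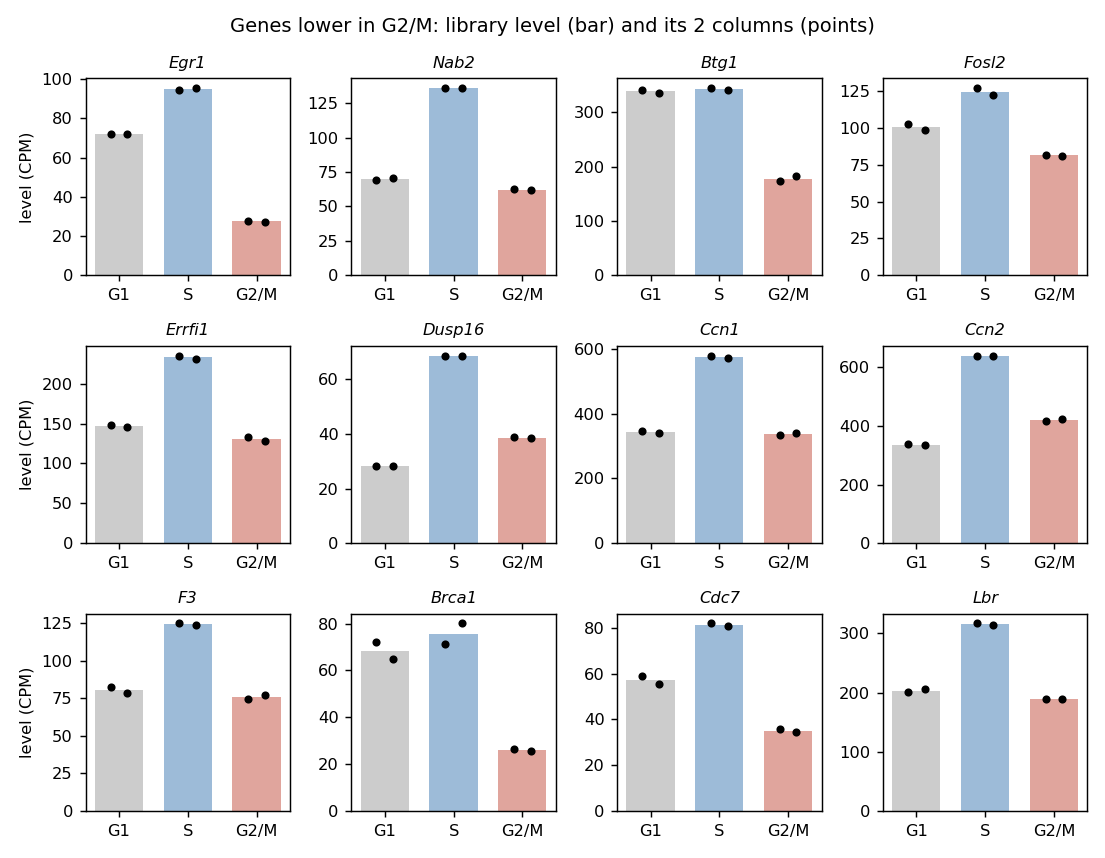
Levels in CPM of 12 genes lower in G2/M than in S, with bars for the G1, S and G2/M libraries and points for the 2 columns of each. The S bar is the highest of the 3 for each gene, from 68.7 CPM for Dusp16 to 639 CPM for Ccn2.

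Sterol synthesis and uptake genes stood lower for 18 of 23 (49.5% of members), with a median of -0.28, and 3 were 2-fold lower (6.6%) against 0 higher (7.12%). Dhcr7, the enzyme of the last step of cholesterol synthesis, was 2.30-fold lower at 36.9 and 16 CPM, and Insig1, which holds the sterol sensor in the endoplasmic reticulum, 1.64-fold lower. Mvk, the mevalonate kinase gene, was 1.51-fold higher.

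Glycolysis genes stood higher for 13 of 17, with a median of 0.21, led above a mean of 20 CPM by Pfkm, the muscle phosphofructokinase, 1.51-fold higher, and Eno1, an enolase, 1.35-fold higher at 837 and 1128 CPM. Nuclear-encoded respiratory chain genes stood higher for 32 of 50 (50.5% of all members) and lower for 18, with a median of 0.10. Uqcrq, of complex III, stood at 26.2 and 27.3 CPM in the S columns and 69.6 and 69.2 CPM in the G2/M columns, 2.60-fold higher, and Cox5a, of complex IV, 2.06-fold, while Cox8a of the same complex was 2.09-fold lower. All 8 measured genes of the mitochondrial genome stood lower, with log2 ratios from -0.48 to -0.21 and a median of -0.32. Their summed level was 13366 CPM in S and 10563 in G2/M, against 17868 in G1. The largest source of it, mt-Co1, a complex IV subunit, stood at 5449.6 and 5476 CPM in the S columns and 4091 and 4051 CPM in the G2/M columns.

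Noncoding RNAs that stay in the nucleus or host small RNAs stood lower for 9 of 12, with a median of -0.41. Neat1, the scaffold of paraspeckles, stood at 199 and 193 CPM in the S columns and 96.9 and 99.1 CPM in the G2/M columns, 2.00-fold lower. Xist, which coats the inactive X chromosome, stood at 1690.2 CPM in S, 1139 in G2/M and 732 in G1, and Malat1, of nuclear speckles, at 1415, 1034 and 461 CPM. Both were thus highest in S and lowest in G1. Splicing genes of the SR and hnRNP families stood lower for 20 of 31, with a median of -0.13. Among the 29 averaging 50 CPM or more, 18 stood lower and 11 higher, with a median of -0.11. Srsf4, an SR splicing factor, was 3.08-fold lower and Cirbp, an RNA-binding protein induced by cold, 2.59-fold, both at means below 50 CPM, where ratios spread more widely. Ribosome biogenesis genes stood higher for 29 of 40, with a median of 0.13. Nop16, a nucleolar protein, was 1.89-fold higher, and Polr1c, a shared subunit of RNA polymerases I and III, 1.88-fold lower.

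Myogenic regulators had a median of -0.28 over 17 genes and 0.02 over the 11 averaging 50 CPM or more, so their direction depended on the level taken. Hdac4, a repressor of Mef2, was 2.34-fold lower at 34.7 and 14.8 CPM, Six4, a homeobox factor of muscle precursors, 1.84-fold lower, and Mef2a, a factor of muscle differentiation, 1.52-fold higher. Myog and Pax7 did not reach 10 CPM in either phase. Of 32 sarcomere genes 4 were measured and 17 had 0 fragments in both libraries. Des, the muscle intermediate filament, stood at 213 CPM in S, 285 in G2/M and 311 in G1.

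Jag1, a Notch ligand, stood at 58.9 and 57.3 CPM in the S columns and 12.7 and 12.2 CPM in the G2/M columns, 4.66-fold lower, with a log2 ratio of -2.22 (interval -2.37 to -2.07), at a mean below 50 CPM. Notch2, one of its receptors, stood at 199.8 and 201 CPM in the S columns and 116 and 112 CPM in the G2/M columns, 1.76-fold lower, and Maml1, a coactivator of Notch, was 2.16-fold lower. Over the 14 measured Notch genes the median was -0.05, with 8 lower and 6 higher. Tgfb1, the main TGF-beta ligand, stood at 90.8 and 90.8 CPM in the S columns and 37.8 and 34.9 CPM in the G2/M columns, 2.50-fold lower, with a log2 ratio of -1.32 (interval -1.41 to -1.23). Ltbp3, which stores the ligand in the matrix, and Bmp1, a protease that processes collagens, were 1.70-fold and 1.69-fold lower. The ligand genes Tgfb3 and Gdf11 stood higher instead, with log2 ratios of 0.77 and 0.56. The 25 measured TGF-beta and BMP genes had a median of -0.04, with 13 lower and 12 higher. Collagen and matrix genes stood lower for 18 of 27 (49.5% of all members), with a median of -0.19. Sparc, a collagen-binding protein, was 1.38-fold higher at 1261 and 1742 CPM.

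Stress pathways showed no common direction. The integrated stress response (14 of 25 higher, median 0.03), the unfolded protein response (11 of 20, 0.02) and metal and oxidative stress (9 of 19, -0.02) had medians near that of all members. For p53 targets 10 of 22 stood higher, with a median of -0.14, and 4 were 2-fold lower (6.6% of members) against 1 higher (7.12%). Within these pathways, Ddit4, an inhibitor of mTORC1 induced by several stresses, was 2.40-fold lower at 46.7 and 19.4 CPM. Zmat3 and Phlda3, p53 targets, were 2.26-fold and 1.94-fold lower, and Gtse1, a p53 regulator expressed in G2, 1.97-fold higher. Chaperones of the cytosol and mitochondria stood higher for 19 of 27, with a median of 0.12, among them Hspa8, the constitutive heat shock protein 70, 1.56-fold higher at 834 and 1303 CPM. Genes of the complexes that add or remove methyl or acetyl groups at histones, chosen around H3K4 and H3K27, had a median of 0.08 over 29 genes and -0.09 over the 18 averaging 50 CPM or more. Ezh2, the H3K27 methyltransferase, stood at 148 and 206 CPM, and Jarid2, its cofactor, at 16.1 and 47.8 CPM, 2.96-fold higher. The hypoxia response (6 of 16 higher, median -0.13), the circadian clock (2 of 8, -0.14), the interferon response (5 of 7, 0.10) and polyadenylated histone variants (4 of 9, -0.12) were the other lists. Proteasome (median -0.04), lysosome (0.05) and adhesion and actin genes (-0.05) also lay near 0.

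Leaving out numbered gene models, clone names and copies named as pseudogenes, the 20 largest ratios above a mean of 50 CPM ran from 1.19 to 1.6 on the log2 scale, and 4 of these genes belonged to the G2/M score list. The largest of the 20 was that of Emp3 (ENSMUSG00000040212, chromosome 7 from 45918023 to 45921426 in GRCm38), a membrane protein gene, which stood at 25.6 and 24.3 CPM in the S columns and 74.7 and 76.7 CPM in the G2/M columns, 3.04-fold higher, with a log2 ratio of 1.6 (interval 1.49 to 1.71). Reep4, which clears endoplasmic reticulum from mitotic chromosomes, stood at 32.4 and 29.8 CPM in the S columns and 84.2 and 84.6 CPM in the G2/M columns, 2.71-fold higher. Vhl, the recognition subunit of the ligase that degrades hypoxia-inducible factors, was 2.64-fold higher, Bid, a pro-death BH3 protein, 2.43-fold, and Phf8, a histone demethylase, 2.41-fold. Cntrl, a centriole protein, was 2.44-fold higher and Plxna2, a semaphorin receptor, 2.51-fold. For 7 of the 20 the G1 level lay below both other phases, and for 13 it lay between them. Emp3 was among the latter, at 47.5 CPM in G1. Genes picked for S and G2/M levels far apart leave wide room for a G1 level between them. All genes at this level were not counted in this way, so no weight is put on these counts. The gene models Gm21738 and Gm10800, left out of the 20, had higher ratios at this level, 3.32 and 2.25.

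With the same limit on names, the 20 lowest ratios at this level ran from -1.79 to -1.22, and 0 of these genes were in the G2/M score list. The pseudogene copy Rps2-ps10, left out of the 20, had a ratio of -1.24. After Egr1 the lowest of the 20 was that of Arpc5l (ENSMUSG00000026755, chromosome 2 from 39008076 to 39015877), a subunit of the Arp2/3 complex that branches actin, which stood at 125 and 123 CPM in the S columns and 37.5 and 38.2 CPM in the G2/M columns, 3.27-fold lower, with a log2 ratio of -1.71 (interval -1.80 to -1.62). Pygo2, a coactivator of Wnt signalling, stood at 100.02 and 101 CPM in the S columns and 34.2 and 34.5 CPM in the G2/M columns, 2.93-fold lower. Rnf111, a ubiquitin ligase of the TGF-beta pathway, was 2.86-fold lower, Nr2f6, an orphan nuclear receptor, 2.74-fold, Igfbp7, a secreted growth factor binding protein, 2.59-fold, and Parg, which degrades poly(ADP-ribose), 2.41-fold. For 17 of the 20 the G1 level lay between the other phases and for 3 above both. The choice of genes with S and G2/M levels far apart favours such a place for G1 here too, and no share over all genes was counted.

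Among members with a mean below 50 CPM were genes with almost no fragments in 1 fraction. Such genes passed the 10 CPM minimum only through the fraction where they stood high, and those named here were picked for their extreme ratios. Their means lay below 20 CPM, where 38.2% of members were 2-fold apart, so no weight is put on them. Tle4, a transcriptional corepressor, had 0 fragments in S, where 3 fragments correspond to 0.0837 CPM, and 373 in G2/M, 10.3 CPM, so it stood at least 123-fold higher. Actn3, the actinin of fast muscle fibres, and Ap4b1, an adaptor subunit, had 0 fragments in S and stood at least 121-fold and 123-fold higher, at 10.1 and 10.3 CPM in G2/M. Cped1 had 5 fragments in S and 640 in G2/M, with a log2 ratio of 6.98 (interval 5.75 to 8.61). In the other direction Dhx35, a helicase gene, had 590 fragments in S and 5 in G2/M, with a log2 ratio of -6.90 (interval -8.53 to -5.67). Zdhhc1, a palmitoyltransferase gene, had 610 fragments in S and 1 in G2/M, with an interval of its log2 ratio from -14.58 to -6.79. In all, 5 members had 0 fragments in S and 0 members had none in G2/M. At the minimum level, Nkain1 was just inside at 7.31 CPM in S against 10.008 in G2/M, and Tpcn2 just outside at 9.99 and 1.76 CPM.

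Exon length moved with the ratio. Among genes averaging 50 CPM or more, the quartile with the shortest exons (57 to 2999 bases) had a median of 0.08 and 56.3% stood higher in G2/M, while the quartile with the longest (7204 to 35531 bases) had -0.06 and 43.6%. Its part in the list medians was not tested. Genes with near-identical copies are uncertain. The largest case was Rps2, a ribosomal protein gene, and its copy Rps2-ps10, both chosen after their values were seen. The copy stood at 2179.9 CPM in S against 920.1 in G2/M, and Rps2 at 117 and 225 CPM. Summed over gene and copy, the level was 2297 CPM in S against 1145 in G2/M, with a log2 ratio of -1.0 (interval -1.02 to -0.99). Most of this sum was counted at the copy, and the interval does not cover how reads were assigned between gene and copy. Of 7 measured copies named as pseudogenes whose parent was also measured, 6 had a ratio opposite in sign to the parent's.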

How the data were processed

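The deposited values are counts of fragments per gene, made by the authors with featureCounts 1.5.0-p3, which counted read pairs on exons and joined the exons of a gene (Ensembl, GRCm38), per the file headers. The header names no option for strand or for multiply mapping reads, so the counts of overlapping antisense genes and of near-identical copies are uncertain. HISAT2 2.1.0, SAMtools 1.6 and R 4.0.1 appear without a stated role, per the submitters' processing notes. Reads had 101 cycles, per the labels' protocols. The other 24 samples, from ChIP-seq, were not used here.

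Of 46078 gene identifiers, 45143 (98.0%) matched a symbol in a supplied table. The 2 columns of each phase were summed and scaled to CPM with TMM factors (0.990 for G1, 1.00 for S, 1.01 for G2/M) from edgeR 4.0.16 in R 4.3.3. A count below 3 fragments was set to 3 for a ratio. Intervals, computed with SciPy 1.17.1, are exact binomial intervals at 95% for the split of a gene's fragments. The calculation was tested on simulated data. DESeq2 1.42.0 size factors, no further scaling, other filters, a prior count, a lower fold and leaving out each column were the alternatives.

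The members and the 52 gene lists were chosen with earlier results of these data known. Genes with a name of their own (no numbered gene models, clone names or pseudogene copies) were named if they were among the 20 highest or 20 lowest ratios of genes averaging 50 CPM or more, the 8 highest or lowest below that level, the 3 highest or lowest of a list among genes averaging 20 CPM or more, nearest to the minimum level, or in a fixed set of cell-cycle and muscle genes. Others are said to be chosen after their values were seen. Promoter sequences are from RefSeq (GRCm38.p6), whose table held windows for 27025 genes. A few named genes are not reported here.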

Additional observations from a re-analysis of the deposited data

How the results depend on the processing

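The numbers of genes at least 2-fold higher and lower in G2/M were 623 and 578. They were 629 and 570 with DESeq2 size factors, 637 and 560 with library size alone and 621 and 574 with a prior count of 1 fragment. Leaving out 1 column at a time gave 606 to 632 higher and 572 to 587 lower. With no filter on low values they were 1789 and 2245, with a mean of 50 CPM or more 40 and 58, and at 1.5-fold 1408 and 1349. These last settings change how many genes are counted or the fold asked for. Of the 50 lists with a median, 0 moved by over 0.1 with DESeq2 size factors, library size alone or a prior count. With no filter 4 moved so far and 1 changed sign, and at a mean of 50 CPM or more 14 of 46 did and 5 changed sign. Leaving out 1 column moved 0 to 2 lists so far and changed the sign of 0 to 3. No paired analysis was possible because the columns of a phase were counted as 1 library and no test was fitted. The intervals hold counting error only, and the spread between cultures was not measured.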

Other observations

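Some values were chosen after they were seen and belong to no gene list above. Timm23, a subunit of the mitochondrial import channel, and Parg, which degrades poly(ADP-ribose), lie side by side on chromosome 14 in GRCm38, on opposite strands, with Timm23 ending its annotated span at 32201898 and Parg starting at 32201949. Timm23 stood at 59.2 CPM in S against 133 in G2/M, a log2 ratio of 1.17, and Parg at 132 against 54.5, a log2 ratio of -1.27. The gene model Gm21738 stood at 14.4 CPM in S against 144 in G2/M, a log2 ratio of 3.32 (interval 3.19 to 3.45), and Gm10800 at 21.3 against 101, a log2 ratio of 2.25.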
